A study of Mus musculus with 16 samples.

Results

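The 49 genes described here encode proteins of the G2 phase and of mitosis: cyclins with Cdk1, mitotic kinases, the spindle checkpoint, the kinetochore, kinesins, the cytokinesis machinery, and a few chromatin and transcription factors that accompany them. They were taken from a list of 49 names, and a gene was kept if its depth-normalized reads averaged 10 or more across all libraries. All 49 passed, out of 12469 genes that passed in the whole table of 17159, and their means ran from 911 to 55361 depth-normalized reads. RNA was sequenced from CD8+ T cells, the cytotoxic lymphocytes, of C57BL/6 mice, which had first been stimulated for 2 days through CD3 and CD28 by antibodies. They then spent 36 h in 1 of 4 media, with 4 libraries each (16 in all). The media were B16F10 supernatant with added methionine (Sup+, the supplemented supernatant), B16F10 supernatant alone (Sup-), fresh medium lacking methionine (fresh-) and fresh medium containing it (fresh+, the complete fresh medium). B16F10 is a mouse melanoma line, and its supernatant is medium in which those tumour cells had grown. All cells shared the activation step, and nothing in the labels ties the 4 libraries of a medium to separate animals or cultures, so p-values measure the spread between libraries.

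As background, a cell enters mitosis when cyclin B and its kinase partner Cdk1 become active, after CDC25 phosphatases remove inhibitory phosphates. The spindle checkpoint holds anaphase until every kinetochore is attached to microtubules, and the anaphase-promoting complex then has securin and cyclin B destroyed. Most of these genes are transcribed in a wave in G2 by the factors B-MYB, FOXM1 and the MuvB complex, and are repressed in resting cells by the related DREAM complex, so their mRNA is abundant in dividing cells. Activated CD8+ T cells divide fast, and methionine is an amino acid they take up for protein synthesis and for methylation.

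Recovered reads per library ran from 25.8 to 42.31 M. The 6 CD8 T cell markers (Cd8a, Cd8b1, Cd3d, Cd3e, Cd3g and Lck) were present in every library and summed to 113404 to 121402 depth-normalized reads in supplemented supernatant, 89932 to 91664 in supernatant, 78440.2 to 79830.0 in methionine-free fresh medium and 109368 to 113233 in complete fresh medium. Of the 7 melanoma markers, 6 were in the table, with sums of 91.0 to 144 reads in supplemented supernatant, 231 to 257 in supernatant, 257 to 282 in methionine-free fresh medium, which held no tumour supernatant, and 103 to 134 in complete fresh medium. Mlana, which defines melanocytic cells, averaged at most 5.31 reads in any medium, Dct at most 1.29 and Tyrp1 at most 1.93. Most of these sums came from Pmel, Tyr and Mitf. Pmel averaged 27.9 reads in supplemented supernatant, 131 in supernatant, 176 in methionine-free fresh medium and 29.1 in complete fresh medium. Over the 4 media, Tyr averaged 37.8 to 62.2 reads and Mitf 24.5 to 54.1. The 5 B cell markers summed to 363 to 385 reads in supplemented supernatant, 731 to 858 in supernatant, 778 to 966 in methionine-free fresh medium and 503 to 542 in complete fresh medium. Of 6 myeloid markers listed, 5 were in the table. Their sums were 157 to 219 reads in Sup+, 152 to 176 in Sup-, 142 to 211 in fresh- and 343 to 403 in fresh+. Of the 5, Cd68 alone was highest in fresh+. It was the largest part in every medium, averaging 328 reads in fresh+, 152 in Sup+, 104 in fresh- and 76.1 in Sup-. Itgam averaged 34.0 reads in fresh+, 21.9 in Sup+, 44.2 in fresh- and 54.5 in Sup-. Cd14 averaged 5.03, 2.91, 17.9 and 23.5 reads in the same order, and Lyz2 6.77, 5.52, 14.9 and 10.4. Csf1r averaged at most 4.20 reads in any medium. The 4 CD4 T cell markers summed to 3323 to 3609.5 reads in supplemented supernatant, 4101 to 4610.0 in supernatant, 3976 to 4121 in methionine-free fresh medium and 1976 to 2142 in complete fresh medium. The CD4 and B cell sums were highest in the 2 media without added methionine. These sums were mainly Zbtb7b (mean 3874 reads in Sup- and 3672 in fresh-) and Cd79b (765 and 821). Cd4 itself averaged 182 reads in fresh+, 172 in Sup-, 163 in fresh- and 137 in Sup+. In fresh- against fresh+, Cd8a averaged 30626.5 and 24492 reads, Cd8b1 18811 and 19616, and Lck 11335.5 and 27586. Cd3d, Cd3e and Cd3g were also lower in fresh-. The part of these markers in the results below was not tested. In bulk RNA, fewer cells in G2 and mitosis and less mRNA per such cell cannot be told apart.

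Per transcript length, in FPKM, the most abundant of these mRNAs were Top2a, the DNA topoisomerase that untangles sister chromatids (275 FPKM, mean of 16 libraries), Birc5 (220.3 FPKM), Mki67 (152 FPKM), Ccna2 (148 FPKM) and Cenpa (145 FPKM). The least abundant was Anln at 14.4 FPKM. Together, the 49 genes took 1.08 ± 0.017% of all reads in supplemented supernatant, 0.768 ± 0.021% in supernatant, 0.983 ± 0.027% in methionine-free fresh medium and 1.32 ± 0.038% in complete fresh medium (SD, n = 4 each). The supernatant thus held the smallest share and the complete fresh medium the largest. All values below are depth-normalized reads unless FPKM is named, and fold changes are differences of log2(reads + 1) with adjusted p from limma over all 12469 genes.

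**Figure D1:**
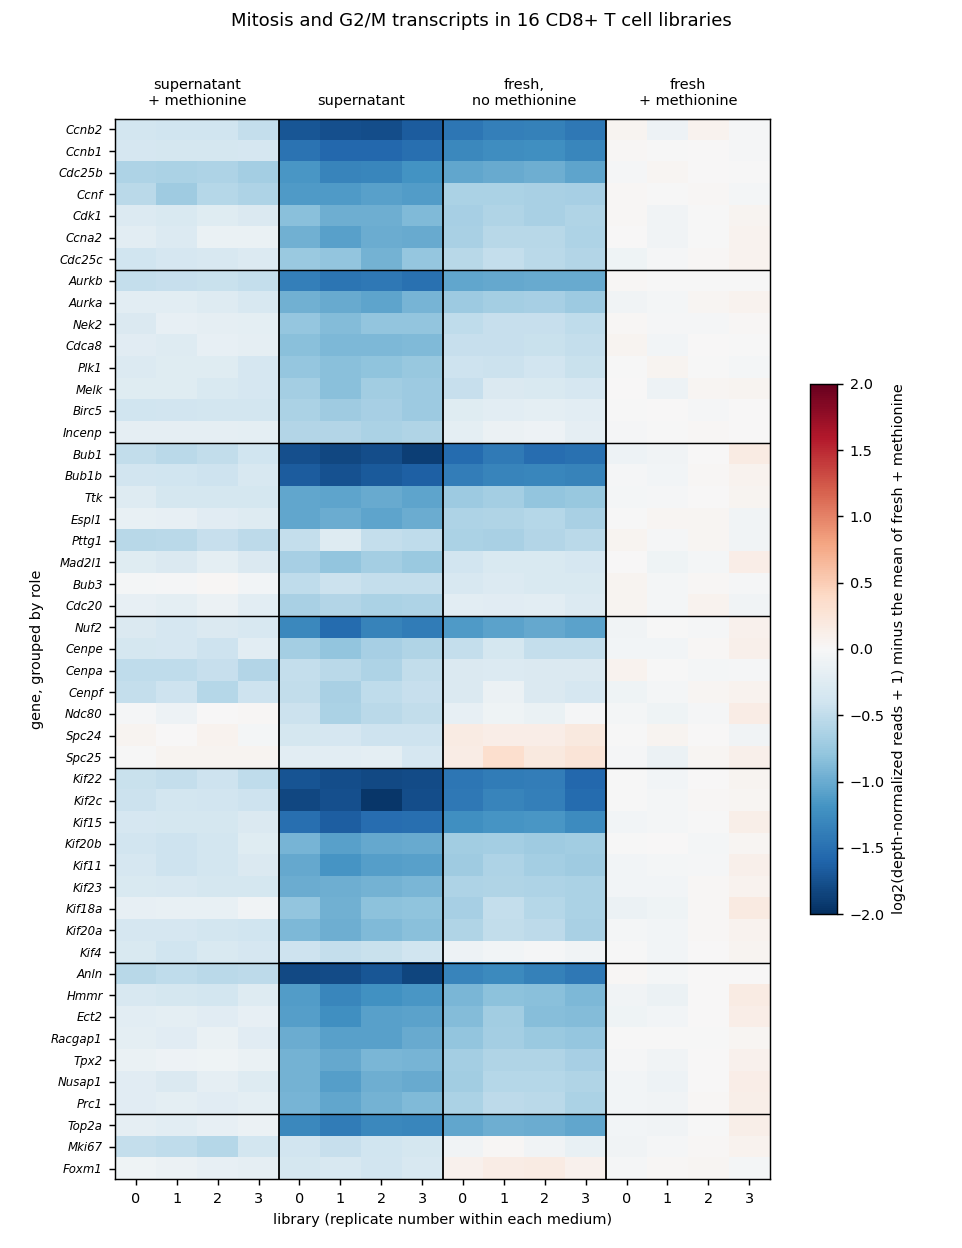
Each row is a gene, grouped by role, and each column a library. Colour is log2(depth-normalized reads + 1) minus the gene's mean in complete fresh medium. The supernatant libraries are the darkest for most genes, the methionine-free fresh libraries are next, and Spc24, Spc25 and Foxm1 are above their mean in complete fresh medium there; in FPKM Foxm1 lies just below it (-0.0079).

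Across the 4 media the genes followed a common order. In 39 of the 49, mean levels were lowest in supernatant, then came methionine-free fresh medium, supplemented supernatant and complete fresh medium. The exceptions were Birc5, Incenp, Pttg1, Cenpa, Cenpf, Spc24, Spc25, Kif4, Mki67 and Foxm1. The highest level was in complete fresh medium for 46 genes and in methionine-free fresh medium for Spc24, Spc25 and Foxm1. The lowest level was in supernatant for 47 genes, in supplemented supernatant for Mki67 and in methionine-free fresh medium for Pttg1.

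Without methionine, in fresh medium, 44 of the 49 genes fell (89.8%, where 42.3% of all genes tested fell), 3 rose (43.3% of all genes rose) and 2 were not called. The median log2 fold change was -0.61, against 0.0092 over all genes. With equal library totals 42 fell and 5 rose. That scaling called 10738 of all 12469 genes in either direction, around a median of 0.17. The 4 libraries of both media did not overlap for 43 genes that were lower (40.4% of all genes) and 3 that were higher (40.9%). A fall of at least 2-fold was measured for 12 genes (24.5%, against 13.5% of all genes). In supernatant against complete fresh medium, all 49 fell (42.5% of all genes), with a median of -0.95. The libraries did not overlap for any of them (39.9% of all genes were lower without overlap). A fall of at least 2-fold was measured for 22 of them (44.9%, against 13.4%). With equal totals 48 fell, and with quantile normalization 48, where Mki67 was called higher (0.25). These scalings called 10675 and 10657 of all 12469 genes in either direction. With the authors' factors no gene of the 49 rose in limma (43% of all genes did), none had an unadjusted p below 0.05 for a rise, and edgeR on recovered reads called 0.

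In supernatant with added methionine 45 of the 49 were higher than in supernatant alone (91.8%, where 41.8% of all genes rose), Mki67 was lower (41.8% of all genes fell) and Pttg1, Cenpa and Cenpf were not called, with a median of 0.66. With equal library totals 44 were higher and 3 lower. There, 10519 of all 12469 genes were called in either direction, around a median of -0.14. In this comparison 45 genes were higher without overlap (39.1% of all genes), and 10 rose at least 2-fold (20.4%, against 11%). The supplemented supernatant still held less of 45 of these mRNAs than complete fresh medium (91.8%, where 32.5% of all genes fell), with a median of -0.32. FPKM called 12 lower, or 42 with the replicate number as a block. Of all 13466 genes, these fits called 2201 and 6049 in either direction. Ndc80, Spc24, Spc25 and Bub3 were not called, and 44 genes did not overlap between the media (28% of all genes). In limma 0 of the 49 rose there (32.5% of all genes did), 0 had an unadjusted p below 0.05 for a rise, and edgeR called 0. The call of Kif18a (-0.13, adjusted p 0.0281) was lost with equal totals (adjusted p 0.0511), in FPKM, without replicate 2 or 3 of complete fresh medium or without replicate 0, 1 or 2 of supplemented supernatant (-0.17 to -0.072 and adjusted p 0.00683 to 0.207 over the fits without 1 library). The comparisons with complete fresh medium share its 4 libraries, so their values are given side by side and not as separate support.

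**Figure D2:**
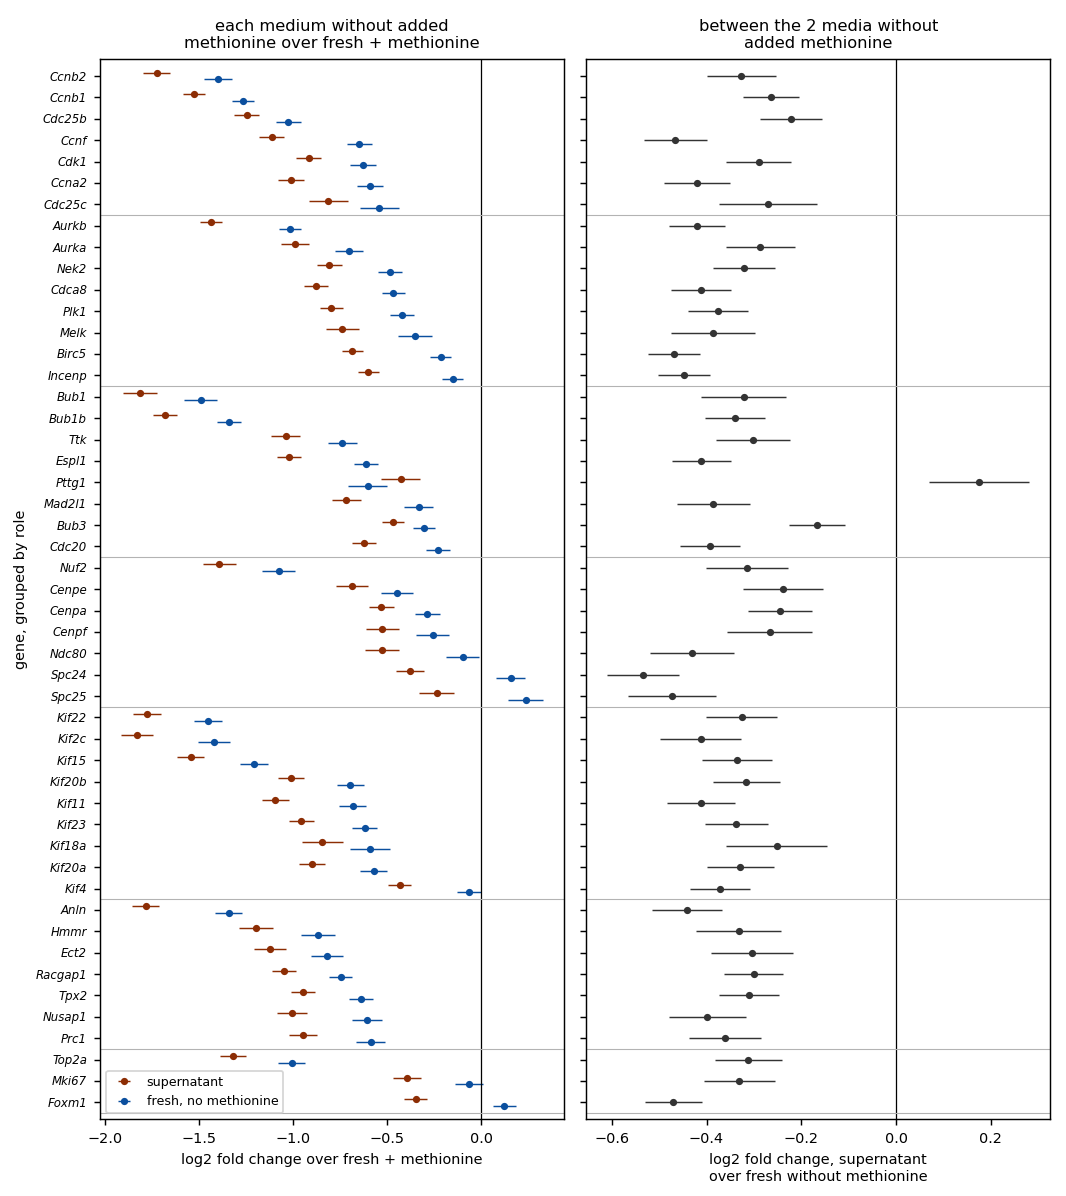
Points are log2 fold changes of each gene with 95% intervals from limma, grouped by role. Left, supernatant and methionine-free fresh medium, each over complete fresh medium; right, supernatant over methionine-free fresh medium. All 49 supernatant points on the left are below 0, Mki67 not so with quantile normalization, and on the right Pttg1 alone is above 0, with its call lost without replicate 1 of supernatant.

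Scaling the libraries to equal totals in place of the authors' factors moved the median of all genes to 0.17 for fresh- over fresh+, 0.15 for Sup- over fresh+ and -0.14 for Sup+ over Sup-. Calls of small size depended on this. For fresh- over fresh+, Incenp (0.0084), Ndc80 (0.062), Kif4 (0.097) and Mki67 (0.096) changed sign with equal totals, although each then lay below the new median of all genes. Equal totals moved 15 of the 47 called values of fresh- over fresh+ by more than 1.5 times, among them Birc5 (-0.055), Cdc20 (-0.071), Cenpf (-0.099), Cenpa (-0.13), Bub3 (-0.14), Mad2l1 (-0.17), Melk (-0.19), Plk1 (-0.26), Cenpe (-0.29) and Cdca8 (-0.31), lower in size, and Spc24 (0.32), Spc25 (0.40) and Foxm1 (0.28), greater. They moved 6 of 49 for Sup- over fresh+ and 6 of 46 for Sup+ over Sup-, where Spc25 was -0.091 and 0.14 and Foxm1 was -0.20 and 0.079. Quantile normalization moved 8 for fresh- over fresh+, 2 for Sup- over fresh+, 2 for Sup+ over Sup- and 1 for Sup+ over fresh+, and neither scaling moved any of the 49 by that much for Sup- over fresh-. Exons of 16 of the 49 genes (Ccna2, Ccnf, Cdc20, Cdc25b, Cdc25c, Plk1, Cdca8, Kif4, Kif18a, Kif20a, Kif22, Top2a, Nusap1, Prc1, Nek2 and Foxm1) overlap exons of another annotated gene, and Ccnb1, Ccnb2, Kif22 and Kif4 have named pseudogenes that could share reads. The strand used in counting is not given in the sources used here, so the values of these genes are uncertain to that extent. Among the 31 genes with neither, 28 fell and 2 rose without methionine in fresh medium, all 31 fell in supernatant against complete fresh medium, and 27 rose with methionine in supernatant. Of all genes, 42.3% fell and 43.3% rose in the first of these comparisons, 42.5% fell in the second and 41.8% rose in the third.

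The promoters of these genes were read from RefSeq (build GRCm38.p6) as 250 bases before to 50 bases after the gene start, and 41 of the 49 genes had an entry. Bub1 and Kif22 are shown because, of the genes with an entry, they had the 2 largest falls without methionine in fresh medium, and Spc25 because it had the largest rise. Capitals mark TTTGAA, read on the other strand as TTCAAA, the usual letters of the CHR element bound by MuvB complexes. They also mark CCAAT, read on the other strand as ATTGG, the letters of the NF-Y site. All 3 genes lie on the minus strand, and the sequences are written in the direction of transcription, for Bub1 chr2:127831810-127832109, for Kif22 chr7:127042371-127042670 and for Spc25 chr2:69206164-69206463.
Bub1: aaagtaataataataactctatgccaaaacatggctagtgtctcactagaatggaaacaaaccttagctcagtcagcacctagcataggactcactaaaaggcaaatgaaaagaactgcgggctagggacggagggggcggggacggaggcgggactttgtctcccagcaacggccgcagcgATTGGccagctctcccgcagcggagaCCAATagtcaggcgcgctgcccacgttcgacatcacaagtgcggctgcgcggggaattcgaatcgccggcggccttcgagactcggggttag
Kif22: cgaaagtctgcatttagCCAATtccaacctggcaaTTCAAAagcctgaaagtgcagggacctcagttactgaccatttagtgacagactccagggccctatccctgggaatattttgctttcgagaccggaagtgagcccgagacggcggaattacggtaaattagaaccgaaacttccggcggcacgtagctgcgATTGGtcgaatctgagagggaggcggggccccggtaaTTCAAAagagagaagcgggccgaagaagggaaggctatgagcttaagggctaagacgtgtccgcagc
Spc25: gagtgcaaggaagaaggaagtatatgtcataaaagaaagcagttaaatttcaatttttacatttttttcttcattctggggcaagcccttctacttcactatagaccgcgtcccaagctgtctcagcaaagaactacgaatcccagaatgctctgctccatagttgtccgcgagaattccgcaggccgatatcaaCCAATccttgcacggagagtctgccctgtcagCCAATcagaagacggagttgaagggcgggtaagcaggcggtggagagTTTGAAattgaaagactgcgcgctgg

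The Bub1 promoter held 2 NF-Y sites and no TTTGAA, that of Kif22 held 2 of each, and that of Spc25 held 2 NF-Y sites and 1 TTTGAA. Over the 41 promoters, TTTGAA on either strand was found in 29 (70.7%), against 20.2% of the promoters of 27025 genes of the same length. CCAAT on either strand was found in 29 (70.7%), against 41.1%, and both in 24 (58.5%), against 8.97%. Matches of the 2 motifs that overlap by a few bases were each counted. A TTTGAA whose first base was within 50 bases of the gene start was found in 27 promoters (65.9%, against 4.92% of all genes), and such a CCAAT in 21 (51.2%, against 13.9%). The first bases of the CHR matches had a median position of -5 and those of the NF-Y matches of -56.5 relative to the start. The 29 genes with TTTGAA had a median log2 fold change of -0.65 without methionine in fresh medium and the 12 without it one of -0.60. These are matches of letters and not measured binding. Other forms of the CHR element were not searched, so a promoter without TTTGAA may still hold one.

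**Figure D3:**
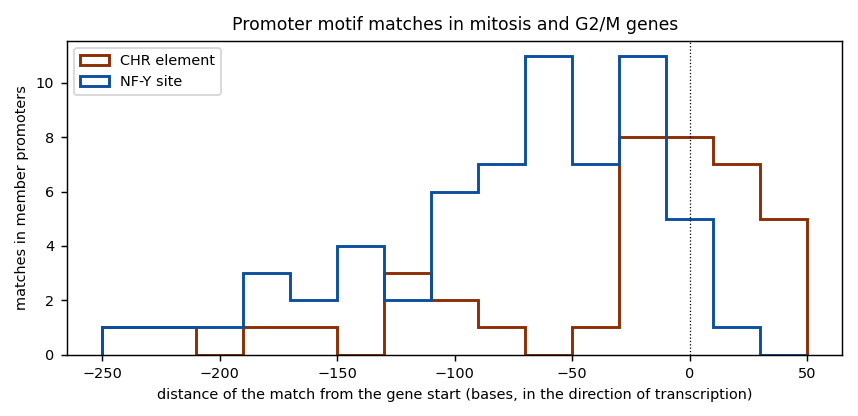
Number of matches of the CHR letters (39 matches) and of the NF-Y letters (62 matches) in the 41 promoters, by distance from the gene start in bases. CHR matches gather around the start and NF-Y matches upstream of it.

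Cyclins, Cdk1 and the CDC25 phosphatases all fell without methionine in fresh medium and all rose when it was added to supernatant (7 of 7 each), with log2 fold changes of -1.40 to -0.54 for fresh- over fresh+ and 0.48 to 1.31 for Sup+ over Sup-. For this and the other role groups below, 42.3% of all genes fell and 43.3% rose for fresh- over fresh+. For Sup+ over Sup-, 41.8% of all genes rose. Ccnb1, which encodes cyclin B1, had 4443, 4597, 4614 and 4369 reads in the 4 libraries of methionine-free fresh medium, against 10964, 10719, 10931 and 10666 in complete fresh medium (log2 fold change -1.26 ± 0.029 (SE), adjusted p 1.99e-28). It had 8529, 8512, 8519 and 8608 reads in supplemented supernatant, against 3876, 3653, 3655 and 3824 in supernatant (log2 fold change 1.19 ± 0.029 (SE), adjusted p 2.17e-27). Every library of fresh+ was above every library of fresh-, and every library of Sup+ above every library of Sup-. Supplemented supernatant stayed below complete fresh medium (-0.34). Ccnb2, encoding cyclin B2, changed by more, with 3186 ± 95.5 reads in methionine-free fresh medium, against 8407 ± 428 in complete fresh medium (SD, n = 4 each; log2 fold change -1.40 ± 0.036 (SE), adjusted p 5.24e-27). Cdk1, the kinase that both cyclins activate, fell by less (-0.63, 95% interval -0.70 to -0.56), as did Ccna2 (-0.59, -0.66 to -0.52), whose cyclin A2 acts from S phase onward. The intervals of the 2 cyclin B genes (-1.32 to -1.21 for Ccnb1 and -1.47 to -1.33 for Ccnb2) lie apart from these.

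Cdc25b, 1 of the 2 phosphatase genes, rose with methionine in supernatant (0.61) but stayed below its level in complete fresh medium. It had 6498, 6439, 6480.1 and 6210.3 reads in supplemented supernatant, 4418, 3998, 4024 and 4354 in supernatant, 4827, 4919.9, 5033 and 4782 in methionine-free fresh medium and 9805, 10177, 9958 and 9851 in complete fresh medium. Its value for supplemented supernatant over complete fresh medium was the lowest of the 49 (log2 fold change -0.63 ± 0.032 (SE), adjusted p 8.85e-18), followed by Ccnf (-0.61), an F-box protein that targets mitotic regulators for destruction. Cdc25c, the other phosphatase, was -0.33 in the same comparison and the methionine effects of the 2 media on it were not called different (-0.059, adjusted p 0.518).

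The 8 genes of mitotic kinases and the chromosomal passenger complex all fell without methionine in fresh medium and all rose with it in supernatant, with log2 fold changes of -1.02 to -0.15 and 0.30 to 0.98, except that the fall of Incenp changed sign with equal library totals and with quantile normalization (0.0084 and 0.040). The passenger complex joins the kinase Aurora B (Aurkb) to INCENP, survivin (Birc5) and borealin (Cdca8), and its 4 mRNAs moved unequally. Aurkb had 4438, 4466, 4528 and 4526 reads in methionine-free fresh medium, against 9216, 9021, 9076 and 9041 in complete fresh medium (log2 fold change -1.02 ± 0.029 (SE), adjusted p 1e-25). Cdca8 fell by 0.47, Birc5 by 0.22 and Incenp by 0.15 on the log2 scale, with 95% intervals (-0.53 to -0.40, -0.27 to -0.16 and -0.21 to -0.097) apart from that of Aurkb (-1.08 to -0.96). Birc5 had 7693, 7813, 7907 and 7809 reads in methionine-free fresh medium, against 9037, 9140.0, 8930.4 and 9137 in complete fresh medium, so its groups did not overlap despite the small change. In supernatant over methionine-free fresh medium, the 4 values lay closer together, with log2 fold changes of -0.42 for Aurkb, -0.41 for Cdca8, -0.47 for Birc5 and -0.45 for Incenp. Among the other kinases, Plk1, which drives mitotic entry and spindle assembly, was -0.42 and Aurka, which matures centrosomes, -0.70 for fresh- over fresh+. Nek2, a centrosome kinase, was -0.48 and Melk -0.35 in that comparison. Plk1 had 5631 ± 185 reads in supplemented supernatant, 3915 ± 90.2 in supernatant, 5079 ± 95.7 in methionine-free fresh medium and 6796 ± 192 in complete fresh medium (SD, n = 4 each). Aurka had 4089 ± 144 reads in supplemented supernatant, 2451 ± 93.1 in supernatant, 2989 ± 72.1 in methionine-free fresh medium and 4866 ± 212 in complete fresh medium. Both kinases were lowest in supernatant and highest in complete fresh medium.

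Of the 8 spindle checkpoint and anaphase genes, 8 fell without methionine in fresh medium and 7 rose with methionine in supernatant, Pttg1 not being called there. Bub1, a kinase that recruits checkpoint proteins to kinetochores, lies at chr2:127801122-127831865 (build GRCm38, minus strand). It had 2316, 2535, 2338 and 2409 reads in methionine-free fresh medium, against 6258, 6449, 6773 and 7566 in complete fresh medium (log2 fold change -1.49 ± 0.044 (SE), adjusted p 2.44e-25), the lowest fold change of the 49. It had 4819.8, 4649.5, 4816 and 5111 reads in supplemented supernatant, against 1992, 1902, 1964 and 1822 in supernatant (log2 fold change 1.34 ± 0.044 (SE), adjusted p 9.06e-24). Every library of Sup+ and fresh+ thus held more reads than every library of Sup- and fresh-. Bub1b, which encodes the checkpoint effector BubR1, had 4426, 4617, 4649.6 and 4556 reads in methionine-free fresh medium, against 11297, 11129.7, 11674 and 12099 in complete fresh medium (-1.34), and was 1.30 for Sup+ over Sup-. Bub3, the partner that carries Bub1 and BubR1 to kinetochores, changed by much less (-0.30, 95% interval -0.36 to -0.24, and 0.45). It was also 1 of the 4 genes whose level in supplemented supernatant (7642 ± 193 reads) was not called different from complete fresh medium (7766 ± 213 reads, SD, n = 4 each; -0.023, 95% interval -0.082 to 0.036, adjusted p 0.503). Ttk, the Mps1 kinase at the head of the checkpoint, was -0.74 for fresh- over fresh+. Mad2l1, which encodes the checkpoint inhibitor Mad2, was -0.33, and its target Cdc20, an activator of the anaphase-promoting complex, -0.23. Cdc20 had 7112 ± 192 reads in supplemented supernatant, 5201 ± 83.6 in supernatant, 6831 ± 127 in methionine-free fresh medium and 8020.3 ± 365 in complete fresh medium (SD, n = 4 each).

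Separase and its inhibitor securin gave different values. Espl1, the separase that cuts cohesin at anaphase, had 7474 ± 251 reads in supplemented supernatant, 4231 ± 88.1 in supernatant, 5624 ± 120.2 in methionine-free fresh medium and 8593 ± 295 in complete fresh medium (SD, n = 4 each), the order of most of the 49 genes. Pttg1, which encodes securin, had 797, 813, 852 and 816 reads in supplemented supernatant, 846, 979, 846 and 831 in supernatant, 757, 752, 779 and 806 in methionine-free fresh medium and 1224, 1157, 1204 and 1119 in complete fresh medium. It was low in all 3 media other than complete fresh medium, and its difference between supplemented supernatant and supernatant was not called (-0.092, 95% interval -0.20 to 0.013, adjusted p 0.0981). That difference was called with equal totals (-0.22, adjusted p 0.000181) and with quantile normalization (-0.11, adjusted p 0.0392), in a range of adjusted p from 0.000181 to 0.871 over its 26 alternatives. Pttg1 was also the only one of the 49 called higher in supernatant than in methionine-free fresh medium (log2 fold change 0.18 ± 0.052 (SE), adjusted p 0.0105). Replicate 1 of supernatant, at 979 reads, stood above the other 3, and without it the value was 0.12 and the call was lost (adjusted p 0.0748, in a range of 0.00808 to 0.521 over its 26 alternatives).

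The kinetochore and centromere genes moved in both directions in fresh medium: 5 of 7 fell without methionine, Ndc80 with a change of sign at equal library totals (0.062), and Spc24 and Spc25 rose. The NDC80 complex, which binds the kinetochore to microtubule ends, is built of Ndc80, Nuf2, Spc24 and Spc25. Nuf2 had 1894, 1983, 2034 and 1967 reads in methionine-free fresh medium, against 3961, 4149, 4090.5 and 4429 in complete fresh medium (log2 fold change -1.08 ± 0.043 (SE), adjusted p 1.01e-21). Spc25 had 1834, 2095, 1911 and 1990.4 reads in methionine-free fresh medium, against 1642, 1532, 1699 and 1776 in complete fresh medium (log2 fold change 0.24 ± 0.046 (SE), adjusted p 1.86e-05). Spc24 had 2186, 2145, 2148 and 2225 reads in methionine-free fresh medium, against 1948, 2026, 1968 and 1867 in complete fresh medium (log2 fold change 0.16 ± 0.037 (SE), adjusted p 0.000263). For Spc24 and Spc25 every methionine-free library was above every complete one, while for Nuf2 every one was below. Ndc80 had 3508 ± 145 reads in methionine-free fresh medium, against 3758 ± 270.1 in complete fresh medium (SD, n = 4 each; log2 fold change -0.098 ± 0.044 (SE), adjusted p 0.0378), and this call was lost in edgeR (adjusted p 0.0536) and without replicate 0, 1 or 2 of methionine-free fresh medium or replicate 3 of complete fresh medium (-0.12 to -0.048 over the fits without 1 library, adjusted p 0.0138 to 0.637 over its 26 alternatives). The rises of Spc24 and Spc25 were not called in the FPKM table (0.10 and 0.25, adjusted p 0.553 and 0.341, the highest over their 26 alternatives); with the replicate number as a block the adjusted p was 0.0888 for Spc24 and 0.00399 for Spc25.

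In supernatant, the same 4 subunits all rose with methionine. Nuf2 was 1.08 for Sup+ over Sup-, Ndc80 0.50, Spc24 0.40 and Spc25 0.28. Spc24 had 2019, 1956, 2050.1 and 1899 reads in supplemented supernatant, against 1531, 1539, 1472 and 1470.0 in supernatant. The lowest Spc24 library of supplemented supernatant was above the highest of supernatant. Ndc80, Spc24 and Spc25 were also not called different between supplemented supernatant and complete fresh medium (-0.027, 0.021 and 0.039, with 95% intervals of -0.12 to 0.062, -0.055 to 0.097 and -0.054 to 0.13), whereas Nuf2 stayed lower (-0.31, adjusted p 1.16e-07).

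Cenpa and Cenpf were not called for Sup+ over Sup-. Cenpa, the histone H3 variant that marks centromeres, had 4586, 4559, 4697 and 4328 reads in supplemented supernatant, 4664, 4486, 4214 and 4629.8 in supernatant, 5315, 5351, 5334 and 5300.2 in methionine-free fresh medium and 6782, 6460.2, 6326 and 6402 in complete fresh medium. It was low in both supernatants, and methionine added to supernatant gave no called difference (0.015, 95% interval -0.053 to 0.082, adjusted p 0.685), although with equal totals it was called lower (-0.12, adjusted p 0.00144, in a range of 0.00144 to 0.967 over its 26 alternatives). Cenpf, a large kinetochore protein of G2, had 6173 ± 299 reads in supplemented supernatant, against 5933 ± 354 in supernatant (SD, n = 4 each; 0.058, adjusted p 0.218), and was -0.47 for Sup+ over fresh+. Cenpe, a kinesin of the kinetochore, rose with methionine in supernatant (0.35). It had 8233, 8279, 7832 and 9008 reads in supplemented supernatant, against 6509.7, 6038, 6622 and 6925 in supernatant.

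Of the 9 kinesins, 8 fell without methionine in fresh medium, Kif4 was not called, and all 9 rose with methionine in supernatant, Kif4 with a change of sign at equal totals (-0.032). Kif2c, which encodes MCAK, a microtubule-depolymerizing motor that corrects kinetochore attachments, had 1301, 1358, 1193 and 1345 reads in supernatant, against 4588, 4473, 4672 and 4728 in complete fresh medium (log2 fold change -1.83 ± 0.042 (SE), adjusted p 2.62e-28), the lowest fold change of any of the 49 in any comparison. It had 3432, 3588, 3548 and 3467 reads in supplemented supernatant (log2 fold change 1.43 ± 0.042 (SE), adjusted p 3.73e-25 over supernatant), which was also the highest value for Sup+ over Sup-. Kif22, a chromosome-binding motor at chr7:127027729-127042471 (build GRCm38, minus strand), had 2659 ± 156 reads in methionine-free fresh medium, against 7264 ± 228 in complete fresh medium (SD, n = 4 each; log2 fold change -1.45 ± 0.037 (SE), adjusted p 3.4e-27). Its exons overlap those of Gm31749 on the opposite strand, so part of its reads may belong to that gene. Kif15, which works with Kif11 in separating spindle poles, had 4084, 4238, 4290.2 and 4017 reads in methionine-free fresh medium, against 9235, 9330.5, 9521 and 10395 in complete fresh medium (-1.21), and Kif11 itself was -0.68. Kif18a, which damps chromosome movements, Kif20a, Kif20b and Kif23, motors of the midzone and cytokinesis, lay between -0.69 and -0.57. Kif4, a chromokinesin, had 5238, 5413, 5517 and 5355 reads in methionine-free fresh medium, against 5595, 5427, 5633 and 5818 in complete fresh medium (log2 fold change -0.062 ± 0.031 (SE), adjusted p 0.0636), and the value was called higher with equal totals (0.097, adjusted p 0.00377, in a range of 0.00377 to 0.681 over its 26 alternatives). It was lower in supernatant than in complete fresh medium (-0.43, adjusted p 1.39e-14) and lower in supplemented supernatant (-0.33).

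Spindle microtubule and cytokinesis genes fell without methionine in fresh medium in 7 of 7 cases and rose with it in supernatant in 7 of 7, with log2 fold changes of -1.34 to -0.59 and 0.74 to 1.26. Anln, the actin-binding anillin of the cleavage furrow, had 1776, 1828, 1736 and 1647 reads in methionine-free fresh medium, against 4486, 4304, 4460.2 and 4468 in complete fresh medium (log2 fold change -1.34 ± 0.036 (SE), adjusted p 2.08e-26). It had 3031, 3108, 3058 and 3093 reads in supplemented supernatant, against 1271, 1277, 1353 and 1245 in supernatant (log2 fold change 1.26 ± 0.036 (SE), adjusted p 2.36e-25), and no libraries of either pair overlapped. Ect2, the RhoA exchange factor that places the furrow, and Racgap1, its activator at the midzone, had log2 fold changes of -0.82 and -0.75 for fresh- over fresh+. Prc1, which bundles midzone microtubules, was -0.59. The spindle assembly genes Tpx2, Nusap1 and Hmmr were -0.64, -0.61 and -0.87. Hmmr had 7109.9 ± 259 reads in supplemented supernatant, 3881 ± 219.5 in supernatant, 4883 ± 151 in methionine-free fresh medium and 8919.7 ± 782 in complete fresh medium (SD, n = 4 each). Tpx2 came closest of these 7 to its level in complete fresh medium once methionine was added to supernatant (12582 ± 193 reads in supplemented supernatant, against 13604 ± 602 in complete fresh medium, SD, n = 4 each; -0.11, adjusted p 0.00227).

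**Figure D4:**
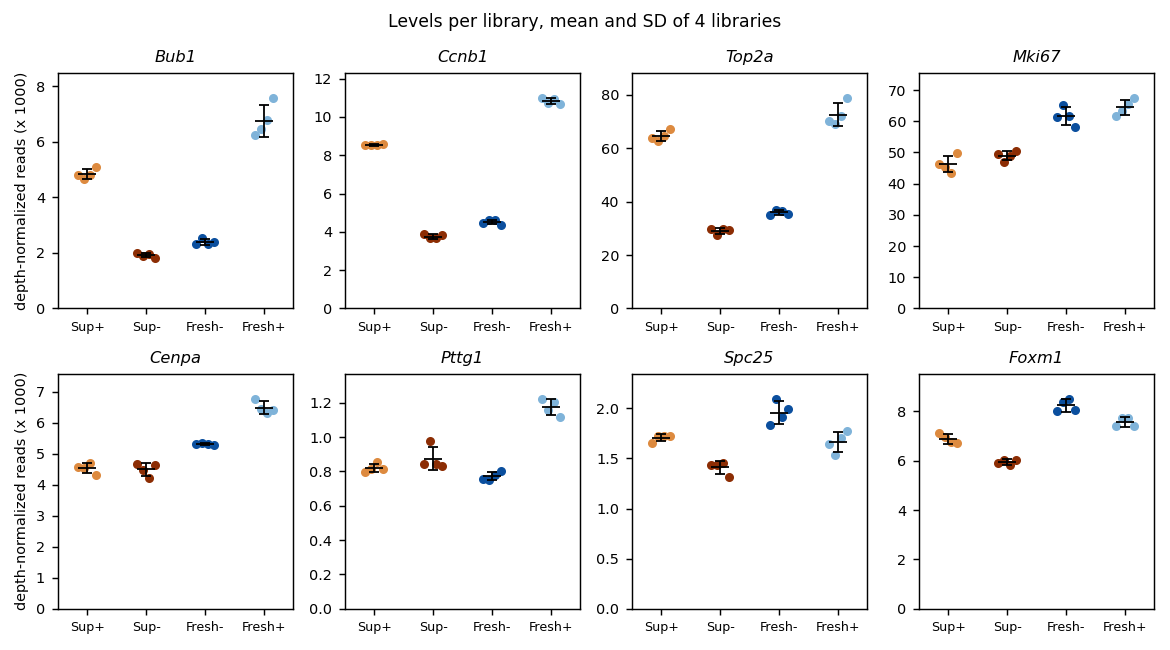
Depth-normalized reads of 8 genes in each of the 16 libraries, by medium; points are libraries, and bars the mean and SD of 4. Bub1, Ccnb1 and Top2a are higher in Sup+ and fresh+ than in Sup- and fresh-. Mki67 and Cenpa are lowest in the 2 supernatants, Mki67 not so with quantile normalization. Pttg1 is highest in complete fresh medium, and Spc25 and Foxm1 are highest in methionine-free fresh medium, Foxm1 not so in FPKM.

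Top2a and Mki67, 2 genes commonly read as marks of proliferation, gave different results. Top2a had 35149, 36932, 36547 and 35385 reads in methionine-free fresh medium, against 70045, 69032, 72215 and 78643 in complete fresh medium (log2 fold change -1.01 ± 0.035 (SE), adjusted p 2.02e-23). It had 63805, 62684, 64630.4 and 67028 reads in supplemented supernatant, against 29661, 27365, 29688 and 29342 in supernatant (log2 fold change 1.15 ± 0.035 (SE), adjusted p 8.23e-25), so the 2 media of each pair did not overlap. Quantile normalization gave Top2a smaller values, -0.43 for fresh- over fresh+, -0.86 for Sup- over fresh+ and 0.70 for Sup+ over Sup-. Mki67, which encodes the Ki-67 protein that coats mitotic chromosomes, had 61395, 65312, 61693 and 58330.5 reads in methionine-free fresh medium, against 61684, 63450.5, 65405 and 67328 in complete fresh medium (-0.064 ± 0.037 SE, adjusted p 0.103). It had 46209, 45389, 43572 and 49892 reads in supplemented supernatant, against 49618, 47057, 48984 and 50459.5 in supernatant (-0.085 ± 0.037 SE, adjusted p 0.0332), a call that was lost without replicate 0, 2 or 3 of supernatant or without replicate 0, 1 or 2 of supplemented supernatant (-0.12 to -0.057, adjusted p 0.00195 to 0.157 over the fits without 1 library). With each supernatant set beside a fresh medium, Mki67 was lower in the supernatant, with log2 fold changes of -0.48 for Sup+ over fresh+ and -0.33 for Sup- over fresh-. Its values moved with the scaling: quantile normalization gave 0.61 for fresh- over fresh+ and 0.25 for Sup- over fresh+, and it gave -0.56 (adjusted p 2.46e-15) for Sup+ over Sup- and -0.31 for Sup+ over fresh+. With equal totals Mki67 was -0.22 for Sup+ over Sup- and -0.25 for Sup- over fresh+.

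Foxm1, which encodes a transcription factor of G2/M genes, was among the 3 genes called higher without methionine in fresh medium. It had 8010.4, 8391, 8512 and 8043 reads in methionine-free fresh medium, against 7414, 7729, 7735 and 7389.6 in complete fresh medium (log2 fold change 0.12 ± 0.03 (SE), adjusted p 0.000332), and in FPKM the value was -0.0079 (adjusted p 0.974, the highest over its 26 alternatives). Both supernatants were below complete fresh medium, supplemented supernatant with 6881 ± 189 and supernatant with 5947 ± 105 reads (SD, n = 4 each; -0.14 and -0.35 over complete fresh medium).

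The comparison of the 2 media without added methionine asked how supernatant differs from fresh medium made without methionine. Of the 49 genes, 48 were lower in supernatant (98.0%, where 12.9% of all genes fell) and Pttg1 was higher (14% of all genes rose), with a median log2 fold change of -0.33 against 0.0026 over all genes. The libraries did not overlap for any of the 49, 48 of them lower (14% of all genes) and 1 higher (14.7%). The changes ranged from -0.53 (Spc24) to -0.17 (Bub3) among the 48, and 0 passed 2-fold (0.136% of all genes were called and at least 2-fold lower). Genes with small methionine effects in fresh medium fell here too: Birc5 was -0.47, Foxm1 -0.47, Spc25 -0.47 and Kif4 -0.37, beside -0.32 for Bub1 and -0.26 for Ccnb1. Bub3 also had a small effect (-0.30 for fresh- over fresh+) but changed least of the 48. The comparisons Sup- over fresh- and fresh- over fresh+ share the fresh- libraries, so their values are not independent. In edgeR on recovered reads of 15 libraries the same counts of 48 lower and 1 higher were called. From FPKM, all 49 had the same direction, but limma called 0 (33 lower and 1 higher at an unadjusted p below 0.05). It called only 37 of all 13466 genes of the FPKM fit there. FPKM values of libraries with the same number deviated together (correlations of 0.83 to 0.97 over the 49 genes in 24 pairs). With the replicate number as a block FPKM called 48 (47 lower and 1 higher), and 1367 of all 13466 genes.

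Whether methionine acted alike in the 2 kinds of medium was tested as an interaction, the effect in supernatant (Sup+ over Sup-) minus that in fresh medium (fresh+ over fresh-). The effect was larger in supernatant, that is more positive, for 19 of the 49 genes (38.8%, where it was larger for 27.6% of all genes), smaller for 8 (16.3%, 25% of all genes) and not called different for 22. The 27 calls together (55.1%) are close to the share over all genes (52.6%). The larger ones were led by Spc24 (0.55), Spc25 (0.51), Ndc80 (0.40), Foxm1 (0.33) and Incenp (0.26). The smaller ones were led by Pttg1 (-0.70, adjusted p 1.23e-09), Cdc25b (-0.41), Cenpa (-0.27) and Cenpf (-0.20). By role, the effect was larger in supernatant for 5 of the 8 kinase and passenger genes, 4 of the 7 spindle and cytokinesis genes and 0 of the 9 kinesins, of which Kif22 alone was called, as smaller (-0.13). Of the 27 calls, 16 were made with the same direction in all 24 fits of the depth-normalized table. Without replicate 1 of supernatant, 12 were larger and 8 smaller. From FPKM 1 gene was called (851 of all 13466 genes), or 9 with the replicate number as a block (4057 of all genes).

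**Figure D5:**
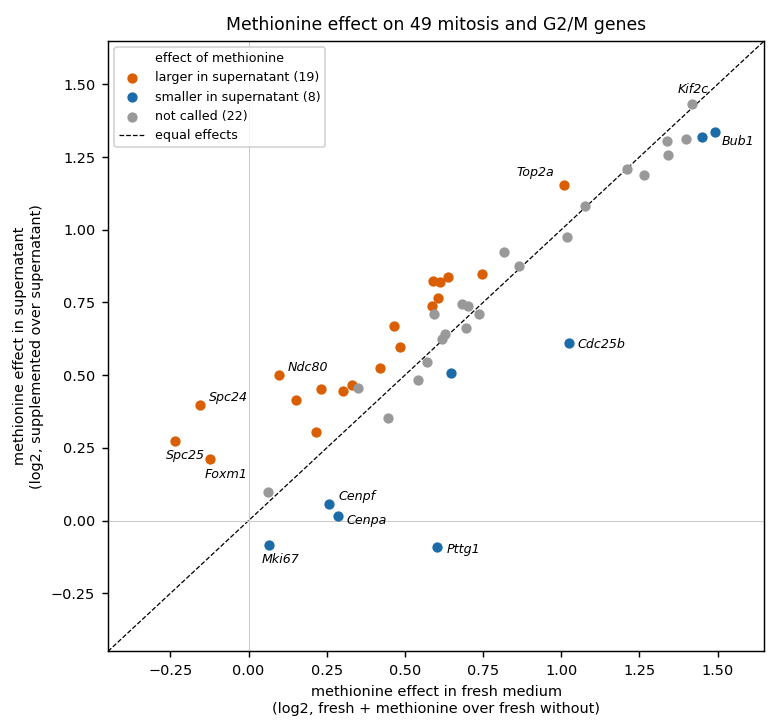
Each point is a gene; the x axis is the methionine effect in fresh medium (log2, complete over methionine-free) and the y axis that in supernatant (log2, supplemented over supernatant). The dashed line marks equal effects: 19 genes called larger in supernatant lie above it and 8 called smaller below, Pttg1 farthest. With equal library totals Cenpa, Cenpf and Kif4 fall below 0 on the y axis, and Incenp, Ndc80, Kif4 and Mki67 change sign on the x axis; with quantile normalization Cenpa and Cenpf do so on the y axis and Incenp, Kif4 and Mki67 on the x axis.

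Genes outside the 49 were read from 7 lists of the same pathways. Of 11 genes listed as brakes on the G2 to M transition, 6 rose and 5 fell without methionine in fresh medium (43.3% of all genes rose and 42.3% fell), with a median of 1.09. With methionine in supernatant 6 fell and 4 rose (median -1.30, where 41.8% of all genes fell and 41.8% rose). The counts of the brakes are near these shares. Gadd45g, a stress-induced inhibitor of cyclin B and Cdk1 in mammals, had 9199 ± 516 reads in methionine-free fresh medium, against 444 ± 31.6 in complete fresh medium (SD, n = 4 each; log2 fold change 4.37, adjusted p 1.24e-37). Its relative Gadd45a had 261 ± 9.51 reads in methionine-free fresh medium, against 60.0 ± 5.06 in complete fresh medium (2.10). Both fell with methionine in supernatant, to 1006 ± 41.1 for Gadd45g in supplemented supernatant, against 8608 ± 190.4 in supernatant, and by 1.30 on the log2 scale for Gadd45a. The brakes with the lowest values were Ccng2 (-1.65 for fresh- over fresh+ and 0.52 for Sup+ over Sup-), an atypical cyclin, and Pkmyt1 (-0.36 for fresh- over fresh+ and 0.76 for Sup+ over Sup-), a kinase that inhibits Cdk1. Cdkn1a, the CDK inhibitor p21, and Gtse1 were chosen after their values were seen. They were 1.68 and 1.77 for fresh- over fresh+ and -2.08 and -1.51 for Sup+ over Sup-. Gtse1 is on this list although it restrains the p53 response in G2, so its rise is not that of a brake.

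Of the 17 genes of the anaphase-promoting complex and its E2 enzymes, 12 fell and 3 rose without methionine in fresh medium (median -0.27; 42.3% of all genes fell and 43.3% rose), and 14 rose and 3 fell with methionine in supernatant, where 41.8% and 41.8% of all genes did. Fbxo5, which encodes the Emi1 inhibitor of that complex, was 1.62 for fresh- over fresh+ and -1.22 for Sup+ over Sup-, and Fzr1, which encodes its late activator Cdh1, -0.90 for fresh- over fresh+ and 0.85 for Sup+ over Sup-. The core subunit genes Anapc13 and Anapc16 were -0.85 and 0.34 for fresh- over fresh+. Of 13 inner centromere genes, 10 fell and 2 rose (median -0.41), with Cenpp (-1.43) and Cenph (-1.23) lowest and Cenpl (0.91) and Cenpb (0.53), a DNA-binding protein of centromere repeats, highest. Of 15 genes of the outer kinetochore and checkpoint partners, 7 fell and 5 rose (median -0.065), near the shares of all genes. Mad2l1bp, which encodes the p31comet protein that silences the checkpoint, had 5856 ± 69.3 reads in methionine-free fresh medium, against 1400.3 ± 53.1 in complete fresh medium (SD, n = 4 each; 2.06, adjusted p 2.45e-32). It had 1301 ± 25.5 reads in supplemented supernatant, against 5569 ± 157 in supernatant (-2.10), opposite to Bub1, Bub1b and Ttk. Mis12, a scaffold of the kinetochore, was 1.10 for fresh- over fresh+ and -0.83 for Sup+ over Sup-, and Mad2l2 and Zwilch were -0.92 and -0.83 for fresh- over fresh+.

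Of 13 genes listed for the DREAM and MuvB complexes and related E2F factors, 5 rose and 5 fell without methionine in fresh medium. Their median was 0.0017, and the counts are near the shares of all genes (43.3% rose and 42.3% fell). The pocket proteins differed in sign, Rbl2 (p130, the form of resting cells) at 0.38 and Rbl1 (p107) at -0.64, and Tfdp2 was 0.47 and E2f8 -0.46. For Sup+ over Sup- these were -0.59 for Rbl2, 0.85 for Rbl1, -0.38 for Tfdp2 and 0.66 for E2f8. Genes of DNA replication, which precedes G2, fell in 21 of 30 cases and rose in 6 without methionine in fresh medium (median -0.46; 42.3% of all genes fell and 43.3% rose), with Rfc4 (-1.38) and Pold1 (-1.30), parts of the clamp loader and of a replicative polymerase, lowest and Tyms (0.44) and Gins3 (0.33) highest. With methionine in supernatant 26 of 30 rose (median 0.52; 41.8% of all genes rose), and all 30 were lower in supernatant than in methionine-free fresh medium (median -0.30; 12.9% of all genes were lower), beside a median of -0.33 for the 49 genes.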

How the data were processed

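The submitters' processing notes name TopHat2 2.0.13 and Bowtie2 2.2.1, FastQC 0.11.3, Cuffdiff 2.2.1 and Cufflinks, and the builds GRCm38 and mm10; the counting tool, annotation and strand are not given in the sources used here. The authors deposited a signal per gene and library, a depth-normalized count, for 17159 genes, and FPKM (fragments scaled to transcript length and library size) for 23107. The deposited values are whole reads divided by 1 factor per library (100% whole within 0.001 of a read). Values were analysed as log2(value + 1), which understates changes of low genes. In limma 3.58.1 (R 4.3.3), 1 model with 4 group means and a mean-variance trend was fitted to the 12469 genes averaging 10 or more in the 16 libraries. Calls were two-sided, with Benjamini-Hochberg adjustment over these genes, at an adjusted p below 0.05. The steps were tested on simulated data. edgeR 4.0.16 was run on reads recovered from 15 libraries. Replicate 1 of methionine-free fresh medium was left out, since its step was not read securely in a separate check of the units. Its values were nevertheless 100% whole by the measure above. FPKM was used to compare levels between genes and, as log2(FPKM + 0.1), as an alternative. Other alternatives were pseudocounts of 0.5 and 5, no filter or a mean of at least 50, equal library totals, quantile normalization, a replicate block and leaving out each library. Depth was 25.8 to 42.31 M reads per library, which limits the precision of low genes; the median coefficient of variation within a medium was 3.0 to 3.8% for the 49 genes. The 49 genes, the pathway and marker lists and the tests were chosen with earlier results of these data known. All 49 may be named; of a pathway list, the 2 highest and 2 lowest called for methionine-free over complete fresh medium. Motifs were searched on both strands, and coordinates are from GENCODE vM21 (GRCm38).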

Additional observations from a re-analysis of the deposited data

Results flagged for a closer look

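In 13 of the 196 gene and medium combinations, 1 library lay far from the other 3 by Dixon's test at its 95% value of 0.829, where chance alone gives about 1 in 20, or 9.8. Of these, 5 were in replicate 1 of supernatant, 4 of them low. Ttk in replicate 0 of supplemented supernatant had 1976 reads, against 1841 to 1858 in the other 3. Spc25 in replicate 0 of supplemented supernatant had 1651 reads, against 1720.3 to 1727 in the other 3. Kif18a in replicate 3 of supplemented supernatant had 1909.9 reads, against 1801 to 1810.4 in the other 3. Nek2 in replicate 1 of supernatant had 2532 reads, against 2655 to 2677 in the other 3. Pttg1 in replicate 1 of supernatant had 979 reads, against 831 to 846 in the other 3. Spc25 in replicate 3 of supernatant had 1317 reads, against 1432 to 1455 in the other 3. Kif15 in replicate 1 of supernatant had 3059.7 reads, against 3355 to 3396 in the other 3. Kif18a in replicate 1 of supernatant had 1033 reads, against 1138 to 1157 in the other 3. Top2a in replicate 1 of supernatant had 27365 reads, against 29342 to 29688 in the other 3. Cenpe in replicate 1 of methionine-free fresh medium had 8231 reads, against 7503 to 7526 in the other 3. Ect2 in replicate 1 of methionine-free fresh medium had 3177 reads, against 2819 to 2861 in the other 3. Anln in replicate 1 of complete fresh medium had 4304 reads, against 4460.2 to 4486 in the other 3. Racgap1 in replicate 3 of complete fresh medium had 13535 reads, against 13063 to 13103 in the other 3.

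The effect of methionine differed between the 2 kinds of medium for 27 of the 49 genes (55.1%) by limma's interaction test (adjusted p below 0.05), close to the 52.6% of all genes called, so the count says nothing particular to these genes. The values are given as differences of log2 fold changes, supernatant minus fresh medium. The effect was larger in supernatant for Spc24 (0.55), Spc25 (0.51), Ndc80 (0.40), Foxm1 (0.33), Incenp (0.26), Ccna2 (0.23), Cdc20 (0.22), Espl1 (0.21), Cdca8 (0.20), Tpx2 (0.20), Nusap1 (0.16), Prc1 (0.15), Top2a (0.15), Bub3 (0.14), Mad2l1 (0.13), Nek2 (0.11), Plk1 (0.10), Racgap1 (0.10) and Birc5 (0.089). It was smaller in supernatant for Pttg1 (-0.70), Cdc25b (-0.41), Cenpa (-0.27), Cenpf (-0.20), Bub1 (-0.16), Mki67 (-0.15), Ccnf (-0.14) and Kif22 (-0.13). Quantile normalization gave 0.052 for Mki67, and their causes were not tested.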

How the results depend on the processing

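Over 7644 pairs of a gene and another setting, 7295 gave the same direction and side of the threshold, 265 lost a call, 12 gained one and 72 changed sign. Of these 72, 60 were called in neither fit (49 for the interaction, 5 for Sup+ over Sup-, 5 for Sup+ over fresh+ and 1 for fresh- over fresh+), and 12 were called in at least 1. For fresh- over fresh+, the count of the 49 genes called higher (3) was 5 with equal totals, 0 in the FPKM table and 1 in FPKM with a replicate block, and the median (-0.61) was -0.45 with equal totals and -0.50 with quantile normalization. For Sup- over fresh+, 1 gene, Mki67 (0.25), was called higher with quantile normalization, and the median (-0.95) was -0.80 with equal totals, -0.86 with quantile normalization and -1.01 in FPKM with or without the block. For Sup+ over Sup-, the count called lower (1) was 3 with equal totals, 2 with quantile normalization, and 0 with no filter, in FPKM with or without the block and in 6 fits without 1 library (0 to 1), and the median (0.66) was 0.53 with equal totals and 0.62 with quantile normalization. For Sup+ over fresh+, 12 genes (45) were called in FPKM, all lower, and the median ran from -0.34 to -0.28 when 1 library was left out. For Sup- over fresh-, FPKM called 0 (49; 48 lower and 1 higher) but 48 with the block, with a median of -0.40 in both (-0.33), and the count called higher ran from 0 to 1 when 1 library was left out, with 0 without replicate 1 of supernatant. For the interaction, 27 calls (19 larger, 8 smaller) became 1 in FPKM (0 larger, 1 smaller) and 9 with the block (6 and 3), with medians of 0.097 in both (0.036). The 8 smaller ones became 5 with equal totals and 4 with quantile normalization, and the 19 larger ones ran from 12 to 20 without 1 library. Over the pathway lists, FPKM called 67 (104) genes for fresh- over fresh+, 71 (107) for Sup+ over Sup-, 15 (84) for Sup+ over fresh+ and 3 (92) for Sup- over fresh-. Of all 13466 genes, FPKM called 7626, 6818, 2201 and 37 in these comparisons. It called 7587 for Sup- over fresh+ and 851 for the interaction. Of all 12469 genes, equal totals called 10738 for fresh- over fresh+, 10675 for Sup- over fresh+, 10519 for Sup+ over Sup- and 6629 for the interaction. Quantile normalization called 10699, 10657, 10468 and 6460 in the same order. The 12 sign changes with a call were, for fresh- over fresh+, Incenp (0.0084 with equal totals, 0.040 with quantile normalization), Ndc80 (0.062), Kif4 (0.097) and Mki67 (0.096 with equal totals, 0.61 with quantile normalization) and Foxm1 (-0.0079 in FPKM with and without the block). The others were Mki67 for Sup- over fresh+ with quantile normalization (0.25), Cenpa (-0.12) and Kif4 (-0.032) for Sup+ over Sup- with equal totals, and Mki67 (0.052) for the interaction with quantile normalization. Cenpf, not called, was -0.074 with equal totals and -0.012 with quantile normalization for Sup+ over Sup-. The cause was not tested. Replicate numbers are not stated to pair libraries. Over 24 pairs of libraries of the same number, residuals of all genes correlated at -0.067 to 0.068 in the depth-normalized table, so no block was used. Over the 49 genes the correlations there were -0.45 to 0.55, above 0.1 in 9 pairs. A replicate block in that table changed 4 calls of the interaction (27 to 23) and no other call of the 49. Over all genes there, 5 of 16 libraries correlated best, on average, with their own number, and 13 of 16 in FPKM. In FPKM the correlation was 0.090 to 0.46 over all genes, above 0.1 in 21 pairs, and 0.83 to 0.97 over the 49 genes. The median coefficient of variation within a medium was 11.7 to 20.1% in FPKM. The lowest value of the 49 genes in any library was 631 reads.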

Other observations

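Of 18 tested genes of condensin and cohesin, the ring complexes that compact chromosomes and hold sister chromatids together, 14 fell and 3 rose without methionine in fresh medium (median -0.32; 42.3% of all genes fell and 43.3% rose). With methionine in supernatant 15 rose and 3 fell (median 0.39; 41.8% of all genes rose and 41.8% fell). Ncaph2, a condensin II subunit, had 4746 ± 142 reads in methionine-free fresh medium, against 14859 ± 273 in complete fresh medium (SD, n = 4 each; -1.65, adjusted p 9.07e-30 in limma). Its condensin I counterpart Ncaph was -1.18 for fresh- over fresh+, 1.09 for Sup+ over Sup-. Cdca5, which encodes sororin, the protector of cohesion, had 7504 ± 191 reads in methionine-free fresh medium, against 3538 ± 113 in complete fresh medium (SD, n = 4 each; 1.08). The cohesin loader gene Nipbl was 0.56 for fresh- over fresh+, -0.61 for Sup+ over Sup-. Between supernatant and methionine-free fresh medium, 14 of the 18 were lower and 0 higher in limma, beside 12.9% of all genes lower. Also lower there were 8 of 17 anaphase-promoting complex genes, 10 of 13 inner centromere genes and 12 of 15 outer kinetochore genes. The same held for 9 of 11 brakes and 9 of 13 genes of the DREAM and MuvB list. Between supplemented supernatant and complete fresh medium, 12 of the 18 were lower and 1 was higher, beside 32.5% of all genes lower and 32.5% higher.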
